A study of Mus musculus with 12 samples.

Results

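The genes of the mitochondrial ribosomal proteins were taken as those whose array annotation gives a single symbol that begins with Mrpl or Mrps and a digit. There were 127 such probe sets (a probe set is the group of short probes whose signals are summarised as 1 value), and for each gene the brightest one, by its average over the 12 arrays, was kept. This gave 74 genes of the 12393 genes with a probe set of their own. Of these, 49 encode proteins of the large subunit and 24 proteins of the small subunit. The symbols follow old names, so Mrps30 and Mrps18a were counted with the large subunit, where their proteins sit. Mrps36 was counted with neither, because its product belongs to the 2-oxoglutarate dehydrogenase complex of the citric acid cycle. The genes Mrpl30, Mrpl53, Mrps10 and Mrps27 of the RefSeq annotation had no probe set that met the rule. The probe sets of Mrpl15, Mrpl19, Mrpl37, Mrpl38, Mrps12 and Mrps24 are of the kinds that can match related transcripts, so their values are uncertain. All but 1 of the 74 lay above the level of the dimmest 40% of probe sets.

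The mitochondrial ribosome is built in the matrix from mitochondrial rRNA and from proteins that are all encoded in the nucleus, made in the cytosol and imported. It translates the few mitochondrial mRNAs, whose products are core subunits of the respiratory chain and of ATP synthase, complex I among them. Many of its proteins have a counterpart in the bacterial ribosome, and the others are additions found in mitochondria.

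RNA was taken from primary mouse embryonic fibroblasts (MEFs), which were isolated from embryos and had not been made into a line, at passage 4. There were 4 groups of 3 arrays: HtrA2 knockout (KO) cells with rotenone, KO cells with vehicle, wild-type (WT) cells with rotenone and WT cells with vehicle. Rotenone was given at 1 µM for 4 h. It blocks electron transfer in complex I and, besides, disturbs microtubules. HtrA2 is a protease between the mitochondrial membranes, and the labels do not say what was removed from its gene. The genotype entry of the 3 WT rotenone arrays reads knockout, whereas their titles read wild type, and they were grouped by title. As a check, the brighter of the probe sets for Htra2 lay between 7.57 and 7.87 on the 6 arrays of KO cells and between 8.83 and 9.32 on the 6 arrays of WT cells, with the 3 disputed arrays at 9.02 to 9.14. The dimmer Htra2 probe set overlapped, at 8.14 to 8.53 in KO cells and 7.72 to 8.43 in WT cells. The 10 fibroblast markers lay between percentiles 61.9 (Pdgfra) and 99.9 (Vim) of all probe sets, with Twist1 at 69.4 and the other 8 at 92.9 or above. The 21 measured markers of other cell types ran from percentile 2.11 (Cdh1 of epithelium) to 89.5 (Nes, of neural progenitors), so the ranges overlapped. Among them Ptprc of leukocytes was at 12.5 and Tek of endothelium at 11.3, but Cd3e was at 59.8, Krt8 at 56.1, Kdr at 64.2 and Des of muscle at 73.3. Brightness also depends on the probes, so a percentile does not say whether a transcript was present. Nothing in the labels says whether the 3 arrays of a group came from separate cultures or embryos, so the p-values measure only the spread between these arrays, which may be technical.

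Values are log2 and were made comparable between arrays by the authors, so a value of 1 array can be set against that of another for the same probe set, but not between probe sets. Differences are log2 differences, from limma fitted over all 22626 tested probe sets, with Benjamini-Hochberg adjustment over all of them and a threshold of 0.05. In such bulk samples fewer cells of a type and less RNA per cell cannot be told apart.

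Arrays numbered 3 resembled each other beyond their group, while numbers 1 and 2 were hardly told apart. For the 74 genes, 1 array stood apart from its number. Each gene was set against its own mean over the 12 arrays. The median deviation of the 74 genes was 0.038 on KO rotenone array 3, 0.19 on KO vehicle array 3 and 0.23 on WT vehicle array 3, but -0.22 on WT rotenone array 3. There, 15 of the 74 genes lay above their own mean, against 50, 68 and 71 on the other arrays numbered 3. On the arrays numbered 1 and 2 the median ran from -0.15 to 0.11. On WT rotenone array 3 the 32 genes of complex I subunits had a median deviation of -0.38 and the 45 genes of cytosolic ribosomal proteins one of -0.22, while the median over all genes was -0.032. Their part in the results was not tested.

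**Figure D1:**
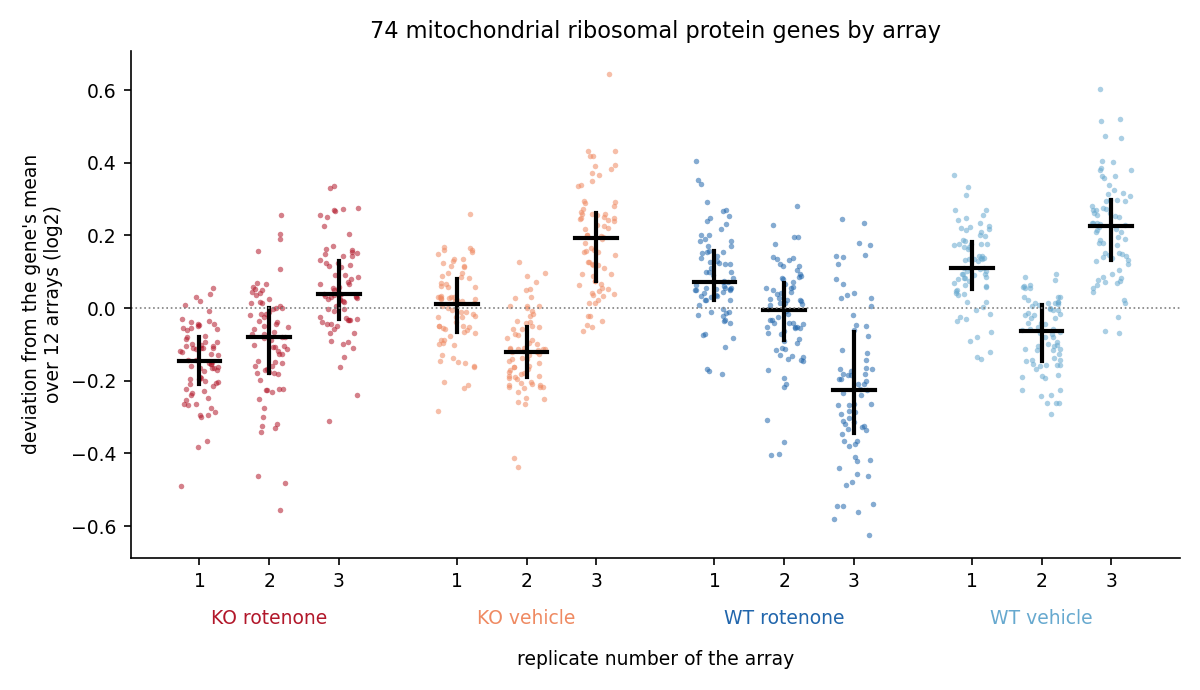
Deviation of each of the 74 genes from its own mean over 12 arrays (vertical axis, log2) on each array (horizontal axis, replicate number within group). Points are genes, thick lines are quartiles and crossbars are medians, and WT rotenone array 3, with a median of -0.22, lies far from the other arrays numbered 3.

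Rotenone against vehicle, taken as the mean of both genotypes, asks whether 4 h of rotenone moved these transcripts. Most estimates lay slightly below 0, and no gene passed the test without a block. The median difference was -0.12, with quartiles at -0.19 and -0.050, and 63 of 74 estimates were lower with rotenone. Over all 12393 genes the median was 0.028. Of the 74 genes, 0 were called, against a background of 0.217% of all probe sets, and the smallest adjusted p was 0.41. At an unadjusted p under 0.05, 11 genes were lower and 1 was higher, against 3.54% and 4.36% of all probe sets. The median difference was -0.11 over the 49 large-subunit genes and -0.13 over the 24 small-subunit genes. The median was -0.12 over the 46 genes with a bacterial counterpart and -0.11 over the 27 without one.

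The size of the shift rested in part on WT rotenone array 3. Within pairs of the same number, the median of rotenone minus vehicle was -0.14, 0.053 and -0.12 in KO cells (numbers 1, 2 and 3) and -0.036, 0.050 and -0.47 in WT cells. In WT pair 3, 70 of 74 genes were lower, against 44 in pair 1 and 25 in pair 2. In the KO pairs 64, 28 and 66 genes were lower. Pair 2 was thus slightly above 0 in both genotypes, but so was its background. Over genes that were not dim the median of pair 2 was 0.058 in KO and 0.045 in WT cells, close to that of the 74 genes. Over all genes it was 0.069 and 0.011. In the other pairs the median over genes that were not dim ran from -0.030 to 0.029. With WT rotenone array 3 left out and the replicate number as a block, the median of the 74 genes was -0.039 and 49 estimates were lower. In that setting it was -0.032 over the large-subunit genes, -0.055 over the small-subunit genes, -0.044 over genes with a bacterial counterpart and -0.032 over those without. With all 4 arrays numbered 3 left out it was also -0.039, with 47 lower. In KO cells alone the median was -0.082, and none of the 74 genes was called, against 0.00884% of all probe sets. At an unadjusted p under 0.05 there were also 0 in KO cells, where 3.66% of all probe sets passed. In WT cells alone the median was -0.14, and 0.025 with WT rotenone array 3 left out and the block. None was called there, against 0.0133% of all probe sets, and 8 were lower at an unadjusted p under 0.05, against 1.84%.

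**Figure D2:**
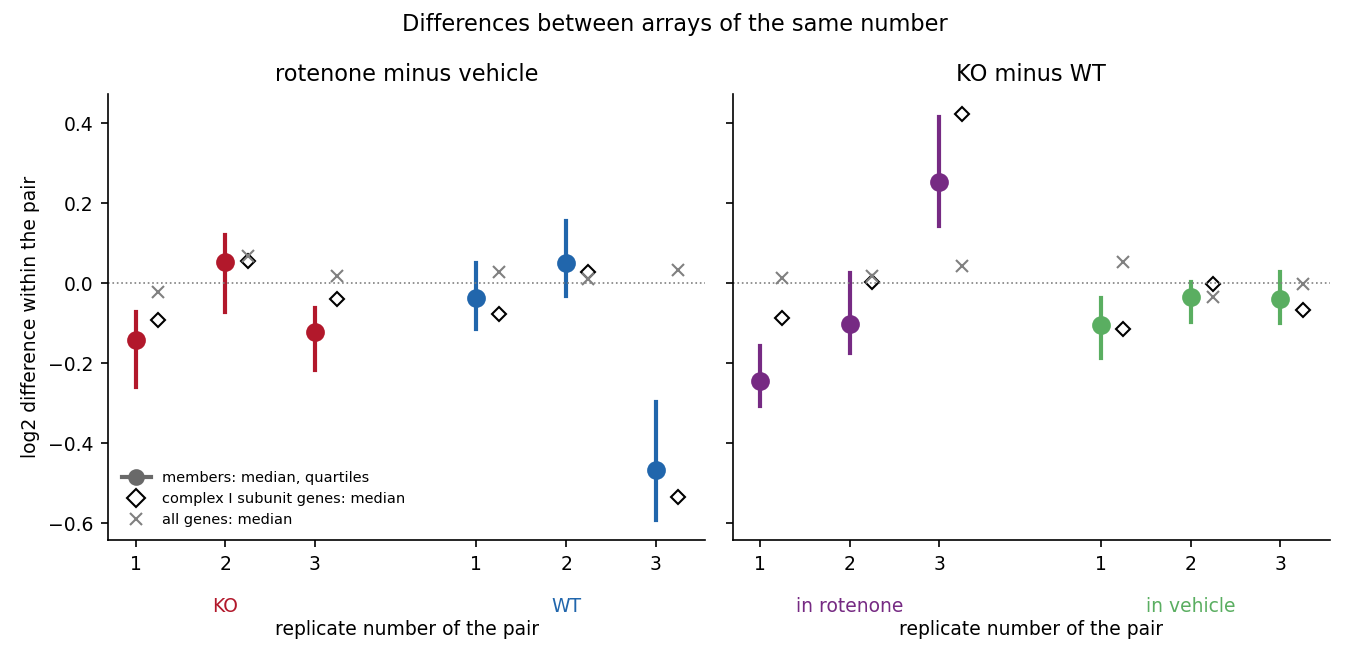
Differences within pairs of arrays that share a replicate number (vertical axis, log2). Left, rotenone minus vehicle in KO and WT cells, and right, KO minus WT with rotenone and with vehicle. Filled points and lines are the median and quartiles of the 74 genes, diamonds the median of 32 complex I subunit genes and crosses the median of all genes. WT pair 3 lies at -0.47 on the left, and KO minus WT with rotenone at 0.25 for number 3 on the right.

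Mrpl18, a protein of the large subunit with a bacterial counterpart, was the single gene to pass a test of the rotenone effect. Its values were 7.50, 7.53 and 8.33 in KO cells with rotenone, against 7.84, 7.97 and 8.64 in KO cells with vehicle. In WT cells they were 7.88, 7.62 and 8.07 with rotenone, against 8.08, 7.84 and 8.59 with vehicle. The groups overlapped, but array 3 was the highest of every group, and rotenone was lower in 6 of 6 same-numbered pairs, by 0.20 to 0.52. The difference was -0.34 (SE 0.19) with an adjusted p of 0.733 without a block. With the replicate number as a block Mrpl18 fell by 0.34, or 1.26-fold (SE 0.082, adjusted p 0.043), where 1.13% of all probe sets fell. With that block, its adjusted p was 0.0591 without WT rotenone array 3 and 0.0389 without both WT arrays numbered 3, where 2.36% fell. A single call among the genes of the mitochondrial ribosomal proteins is near the background of 1.13% and below that of 2.36%.

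The stretch before the start of Mrpl18 is shown because it is the gene that passed, and that of Mrpl36 because its variance had the largest treatment share. The sequences are from RefSeq on GRCm38.p6, 250 bases up to the start, with Mrpl18 at chr17:12916092-12916341 on the minus strand and Mrpl36 at chr13:73330759-73331008 on the plus strand. Capitals mark motif letters on either strand.
Mrpl18: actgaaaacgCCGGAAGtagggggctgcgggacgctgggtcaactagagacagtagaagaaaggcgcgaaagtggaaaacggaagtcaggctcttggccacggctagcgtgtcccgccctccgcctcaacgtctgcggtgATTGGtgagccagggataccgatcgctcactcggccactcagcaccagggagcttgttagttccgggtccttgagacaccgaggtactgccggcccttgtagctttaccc
Mrpl36: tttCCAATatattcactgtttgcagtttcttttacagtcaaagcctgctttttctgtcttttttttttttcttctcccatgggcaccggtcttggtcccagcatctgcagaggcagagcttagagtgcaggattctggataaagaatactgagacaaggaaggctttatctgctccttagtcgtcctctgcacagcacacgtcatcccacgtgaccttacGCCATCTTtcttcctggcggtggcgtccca
Mrpl18 holds letters of the ETS factors 240 bases before the start and CCAAT 110 bases before it. Mrpl36 holds CCAAT 247 bases and the YY1 letters 30 bases before its start.

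Windows of 300 bases (250 before the start and 50 after it) were held for 65 of the 74 genes and for 9882 genes in all. The ETS letters CCGGAAG were in 35.4% of the 65 windows and in 15% of all. The YY1 letters AANATGGC were in 30.8% and 7.58%, the NRF1 letters (GCGC, then NN, then GCGC) in 20.0% and 11.4%, and CCAAT in 38.5% and 38.1%. Both strands were searched, NRF1's letters read the same on both, and an ETS match can run into a YY1 match, each then being counted. ETS factors such as GABP, YY1 and NRF1 are known regulators of nuclear genes for mitochondria. A match is a description and not a site.

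Without a block, Mrpl18 was not among the genes with the lowest test statistics. These were Mrps36, in neither subunit, Mrpl16, Mrpl36 and Mrpl43 of the large subunit, and Mrps26 of the small subunit. Mrps36 (2-oxoglutarate dehydrogenase complex) was at 8.84, 8.89 and 9.21 in KO cells with rotenone, against 9.20, 9.03 and 9.31 with vehicle. In WT cells it was at 8.88, 8.95 and 8.71 with rotenone, against 9.10, 9.11 and 9.34 with vehicle, where the groups did not overlap. Its difference was -0.27 (95% interval -0.46 to -0.076, adjusted p 0.41), and -0.19 without WT rotenone array 3 and with the block.

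Mrpl16, a large-subunit protein with a bacterial counterpart, was at 9.46, 9.48 and 9.63 in KO cells with rotenone, against 9.89, 9.59 and 9.97 with vehicle. In WT cells Mrpl16 was at 9.91, 9.62 and 9.44 with rotenone, against 9.90, 9.79 and 10.04 with vehicle. Its difference was -0.27 (SE 0.096, adjusted p 0.475), and -0.19 without WT rotenone array 3 and with the block. Of the others, Mrps26 of the small subunit differed by -0.23 (SE 0.089), and Mrpl36 and Mrpl43 of the large subunit by -0.21 (SE 0.072) and -0.22 (SE 0.087). Their adjusted p-values ran from 0.453 to 0.55. Without WT rotenone array 3 and with the block, Mrps26 was at -0.18, Mrpl36 at -0.16 and Mrpl43 at -0.16.

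Genes whose direction was the same in all 6 pairs were Mrpl18, Mrpl36, Mrpl51, Mrpl54, Mrps7, Mrps14, Mrps15, Mrps26 and Mrps36, all lower, or 9 of 74, where 4.85% of all probe sets were lower in all 6. No gene was higher in all 6, where 6.52% of all probe sets were. Mrpl51, a large-subunit protein without a bacterial counterpart, had differences of -0.016, -0.39 and -0.29 in the KO pairs and of -0.075, -0.38 and -0.74 in the WT pairs. As the mean of both genotypes it differed by -0.32, but its further probe sets differed by only -0.061 and, for a dim one, 0.052. Within a genotype, arrays did not overlap for Mrpl19, Mrpl27, Mrpl36 and Mrpl50 in KO cells (4 of 74, against 4.06% of all probe sets) and for Mrps14 and Mrps36 in WT cells (2 of 74, against 2.87%). Both shares are near the background.

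The few higher estimates were led by Mrps9, a small-subunit protein with a bacterial counterpart. Mrps9 was at 7.80, 7.96 and 7.80 in KO cells with rotenone, against 7.61, 7.56 and 7.86 with vehicle. In WT cells Mrps9 was at 7.84, 7.78 and 8.002 with rotenone, against 7.63, 7.58 and 7.79 with vehicle, and its difference was 0.19 (95% interval 0.025 to 0.36, adjusted p 0.553). It was followed by Mrps30 at 0.15, Mrpl45 at 0.12, Mrps6 at 0.095 and Mrpl44 at 0.050. Without WT rotenone array 3 and with the block, Mrps9 was at 0.18 and these 4 at 0.19, 0.16, 0.18 and 0.096. Mrpl45 is a large-subunit protein near the exit of the nascent chain, and Mrps6 has a bacterial counterpart.

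Several genes of note for their place in the ribosome had intervals that span 0. The 3 genes for homologues of the same bacterial protein differed by -0.018 (Mrps18a), 0.017 (Mrps18b) and -0.16 (Mrps18c), with SE of 0.098, 0.10 and 0.13. Mrps34 of the small subunit differed by -0.14, Mrpl41 of the large subunit by -0.13 and Mrpl12 by -0.050. Mrpl12 forms the stalk that contacts translation factors and has also been found bound to the mitochondrial RNA polymerase.

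**Figure D3:**
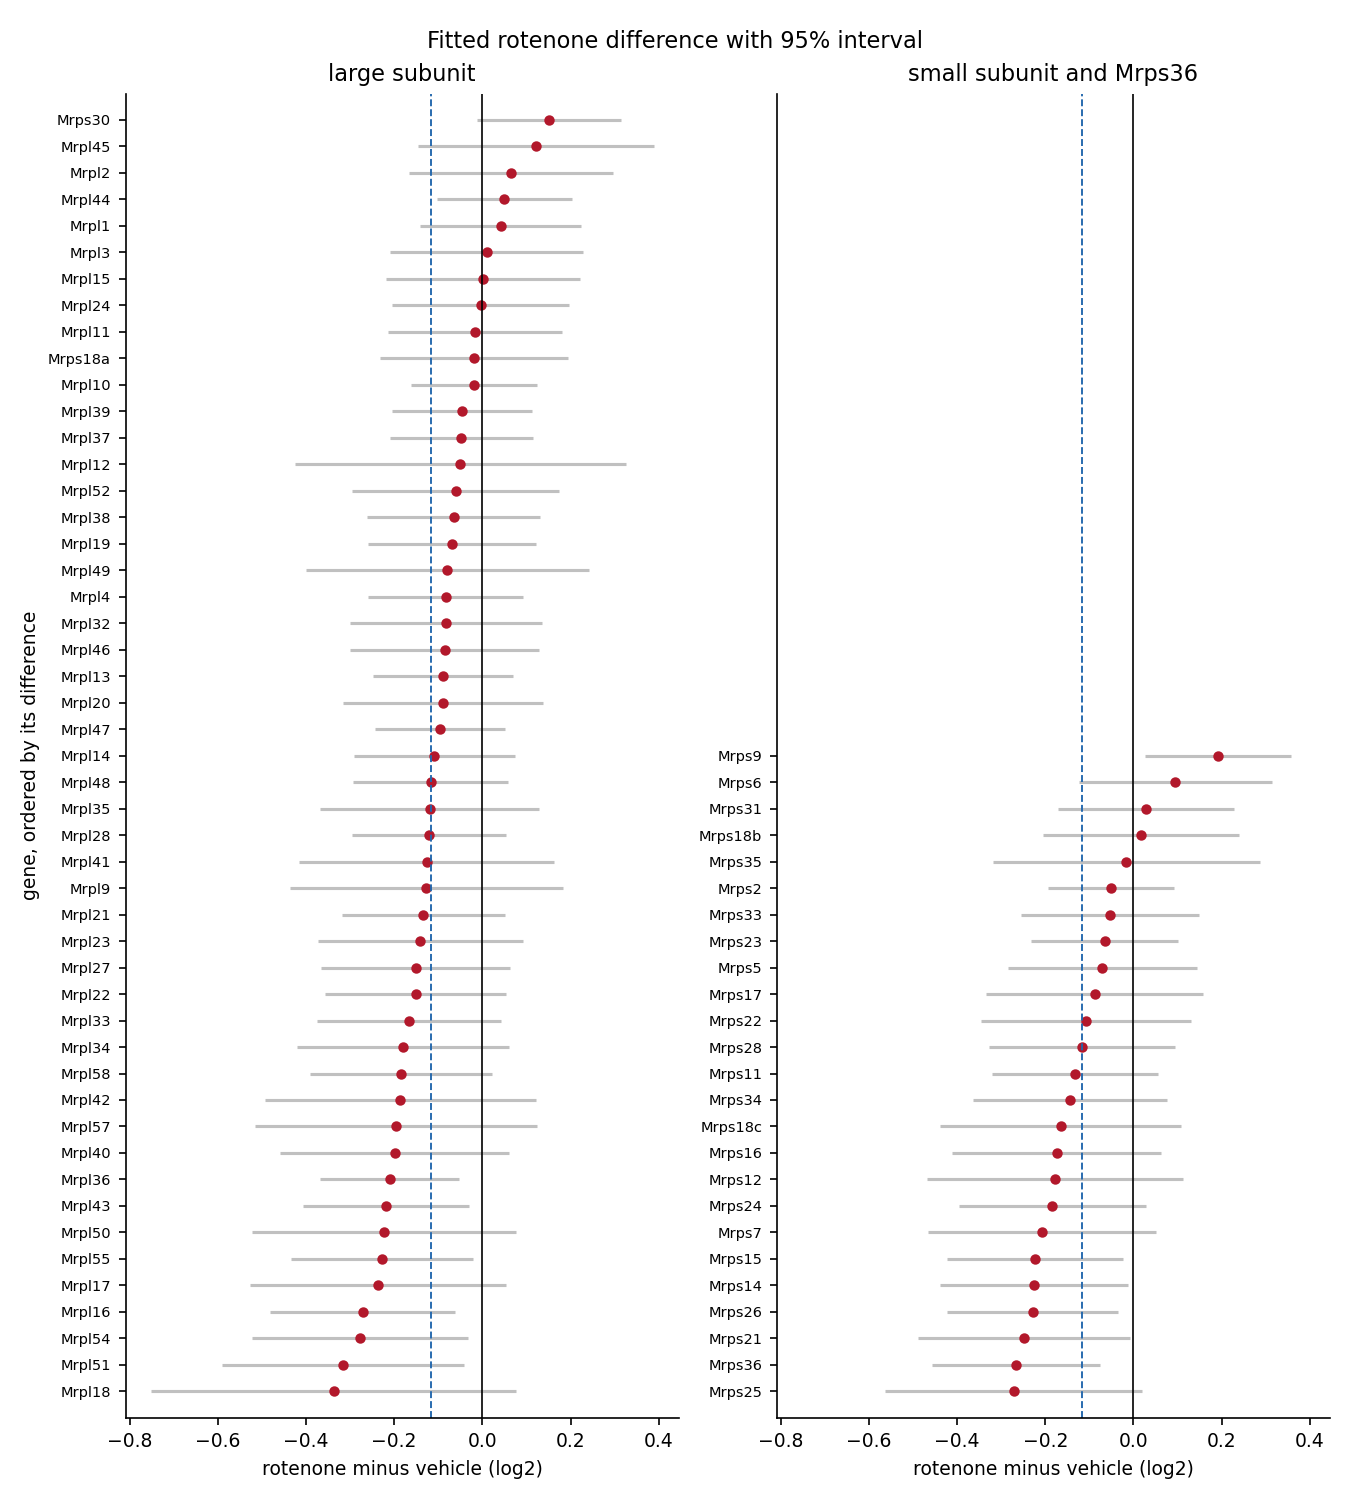
Rotenone minus vehicle for each of the 74 genes (horizontal axis, log2), as the mean of both genotypes, with 95% intervals in grey. Large-subunit genes are on the left, small-subunit genes and Mrps36 on the right, and the dashed line is the median of all 74 at -0.12. Most points lie left of 0, with Mrpl18 lowest at -0.34 and Mrps9 highest at 0.19.

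Knockout against wild type with vehicle asks how these transcripts differ between the genotypes without rotenone. Loss of HtrA2 and differences between the embryos or cultures used cannot be told apart here. Estimates were slightly lower in KO cells, with a median difference of -0.070 (quartiles -0.10 and -0.021) and 63 of 74 below 0, against a median of 0.0090 over all genes. None was called, against 0.00442% of all probe sets, which was Htra2 alone. At an unadjusted p under 0.05 there were also 0, against 1.04%. No gene had KO arrays all below WT arrays, where 1.79% of all probe sets did. Within same-numbered pairs the median of KO minus WT was -0.10, -0.035 and -0.038 (numbers 1, 2 and 3). Of the 74 genes, 63, 53 and 46 were lower. Over all genes the pair medians were 0.053, -0.035 and -0.00097, so number 2 equalled this background. Over genes that were not dim they were -0.00076, -0.0030 and -0.030, and number 3 was close to that. Only in number 1 did the 74 genes lie well below both backgrounds. Without all arrays of a number, and with the block, the median of the 74 genes lay between -0.075 and -0.045. Leaving out 1 array without the block makes the numbers unequal between the genotypes, and there the median was -0.0056 without WT vehicle array 3, 0.015 without KO vehicle array 2, -0.14 without WT vehicle array 2 and -0.13 without KO vehicle array 3. The lowest test statistics were those of Mrps30 (-0.16, SE 0.11), Mrps33 (-0.17), Mrpl47 (-0.12), Mrps2 (-0.11) and Mrpl17 (-0.18).

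The highest was Mrpl19, a large-subunit protein with a bacterial counterpart. Mrpl19 was at 9.01, 9.09 and 9.16 in KO cells with vehicle, against 8.99, 8.99 and 8.92 in WT cells with vehicle, a difference of 0.12 (SE 0.12, adjusted p 1). Its gene lies among the 10 protein-coding genes on either side of Htra2 on mouse chromosome 6. Linkage to the altered locus and loss of HtrA2 cannot be told apart here. Mrpl15, Mrps9, Mrpl52 and Mrpl2 followed at 0.024, 0.0090, 0.013 and 0.0073.

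With rotenone the KO and WT values differed in opposite ways between replicate numbers. The median of KO minus WT was -0.24 for number 1 (72 of 74 lower), -0.10 for number 2 (51 lower) and 0.25 for number 3 (6 lower). Over all arrays the median was -0.011 with 41 lower. None was called, against 0.00442% of all probe sets, and 0 passed at an unadjusted p under 0.05, against 5.57%. With WT rotenone array 3 left out and the block it was -0.18. Mrps30 was at 9.14, 9.25 and 9.28 in KO cells with rotenone, against 9.45, 9.45 and 9.39 in WT cells with rotenone, so the groups did not overlap. The difference was -0.21 (SE 0.11, adjusted p 0.835). KO was lower than WT for Mrps30 in all 6 same-numbered pairs, as for 3.99% of all probe sets, and this held for no other of the 74 genes. None was higher in KO cells in all 6, against 3.04%. Mrpl37, a large-subunit gene, also did not overlap, so 2 of 74 did not, where 3.8% of all probe sets were so.

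Mrpl17, a large-subunit protein with a bacterial counterpart, was at 10.25, 9.99 and 10.67 in KO cells with rotenone, against 10.89, 10.41 and 10.36 in WT cells with rotenone. The array numbered 3 was the highest of the KO cells and the lowest of the WT cells. The difference of Mrpl17 was -0.25 (SE 0.19, adjusted p 0.841). Its further probe set, which was not dim, differed by 0.076 over all arrays, in the opposite direction. Without the 4 arrays numbered 3, and with the block, Mrpl17 fell by 0.53 (SE 0.13, adjusted p 0.0217). This was 1 of 74 genes, near the background, where 0.937% of all probe sets fell. Without both WT arrays numbered 3, Mrpl17 (-0.49, adjusted p 0.0317) and Mrpl50 (-0.45, adjusted p 0.0283) fell. These were 2 of 74, where 1.05% of all probe sets fell. The further probe set of Mrpl50, which was dim, differed by -0.28 over all arrays, in the same direction. The difference of the rotenone effect between genotypes had a median of 0.034 and called 0 of the 74 genes and 0% of all probe sets. At an unadjusted p under 0.05 it gave 0 of the 74 and 0.362% of all probe sets. Its sign rested on WT rotenone array 3, because without that array the median was -0.034, and -0.12 with the block as well.

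**Figure D4:**
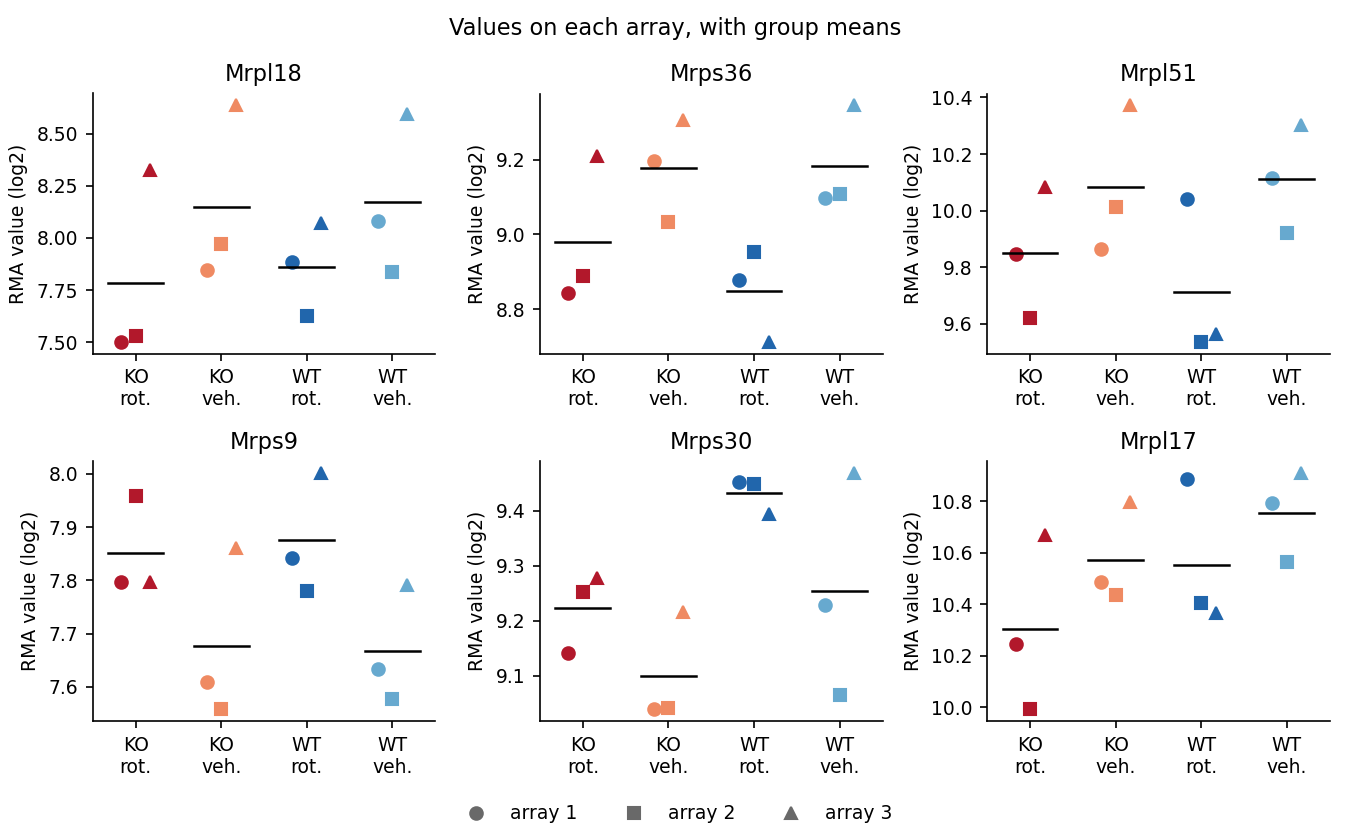
RMA values (vertical axis, log2) on each array for 6 genes, with the group order KO rotenone, KO vehicle, WT rotenone and WT vehicle. Markers give the replicate number, lines the group means. Mrpl18 is highest on array 3 of every group, and Mrps30 is lower in KO than WT cells with rotenone.

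The arrays numbered 3 against those numbered 1 and 2, with the group in the model, gave more calls than any comparison of treatment or genotype. The comparison was made because earlier results had shown these arrays apart. Of the 74 genes, 10 rose and 0 fell, where 11.7% of all probe sets rose and 10.1% fell. The share that rose is near the background, and the share that fell is below it. The median was 0.10 with 51 higher, against -0.043 over all genes. Mrpl18 rose most, by 0.62 (SE 0.087, adjusted p 0.000127). Then came Mrpl12 (0.47), Mrps35 (0.44), Mrpl9 (0.44), Mrpl49 (0.41), Mrpl45 (0.38) and Mrps12 (0.35), with Mrpl40, Mrps7 and Mrps5 at 0.30, 0.29 and 0.24. Mrpl9 and Mrps12 have bacterial counterparts, and Mrps12 sits at the decoding centre.

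For Mrpl12 the values were 9.96, 9.54 and 10.29 in KO cells with rotenone, against 9.87, 9.61 and 10.44 with vehicle. In WT cells they were 10.19, 9.93 and 10.05 with rotenone, against 10.03, 9.78 and 10.54 with vehicle. The rise was thus seen in 3 groups and not in WT cells with rotenone. By group, the median over the 74 genes of number 3 minus the mean of the others was 0.15 in KO rotenone (62 higher), 0.23 in KO vehicle (67 higher), -0.27 in WT rotenone (13 higher) and 0.20 in WT vehicle (65 higher). Without WT rotenone array 3, 25 of the 74 rose, where 10.6% of all probe sets did. Without KO rotenone array 3, 6 did, against 10.1%, without KO vehicle array 3, 4 did, against 8.54%, and without WT vehicle array 3, 5 did, against 8.45%.

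Mrpl45, Mrpl12 and Mrpl9 are shown because, among the 9 genes with a window that rose, they hold the NRF1 letters. The sequences are from RefSeq on GRCm38.p6, plus strand, 250 bases up to the start, at chr11:97315466-97315715, chr11:120484387-120484636 and chr3:94443086-94443335, and capitals mark the NRF1 letters.
Mrpl45: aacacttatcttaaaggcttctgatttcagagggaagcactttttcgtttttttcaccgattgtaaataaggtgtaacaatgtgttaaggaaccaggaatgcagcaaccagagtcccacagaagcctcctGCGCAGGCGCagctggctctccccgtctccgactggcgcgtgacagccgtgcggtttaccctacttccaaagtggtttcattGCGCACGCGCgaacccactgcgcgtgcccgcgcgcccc
Mrpl12: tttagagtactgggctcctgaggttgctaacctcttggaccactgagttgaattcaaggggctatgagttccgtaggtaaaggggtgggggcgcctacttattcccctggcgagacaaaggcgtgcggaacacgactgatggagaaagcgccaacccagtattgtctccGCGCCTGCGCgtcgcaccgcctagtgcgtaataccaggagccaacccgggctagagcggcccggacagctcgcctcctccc
Mrpl9: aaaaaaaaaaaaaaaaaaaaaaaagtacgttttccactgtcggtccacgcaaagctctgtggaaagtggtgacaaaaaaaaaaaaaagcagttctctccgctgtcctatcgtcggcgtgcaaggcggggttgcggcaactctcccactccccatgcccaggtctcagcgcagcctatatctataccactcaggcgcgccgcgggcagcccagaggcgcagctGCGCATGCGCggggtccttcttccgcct
They lie 120 and 38 bases before the start in Mrpl45, 81 bases in Mrpl12 and 28 bases in Mrpl9. Of the 9 genes with a window that rose, 4 hold the YY1 letters, 3 those of NRF1, 2 those of ETS factors and 2 CCAAT.

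The same arrays moved in other gene groups. Of 14 proliferation genes (such as Mki67, Mcm5 and Plk1), all rose, with a median of 1.26, and of 12 genes of the integrated stress response 9 fell and 1 rose (Psat1, by 0.30). Among them Trib3 fell by 1.52 and Ddit3 fell by 1.85. Their part in the members' difference was not tested. The share of a gene's variance that went with the replicate number had a median of 23.3% over the 74 genes, against 31.2% over all genes, and reached 83.8% for Mrps35. The share that went with treatment was 14.0% against 6.14%, highest for Mrpl36 at 53.2%, and the share with genotype 1.41% against 6.49%.

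**Figure D5:**
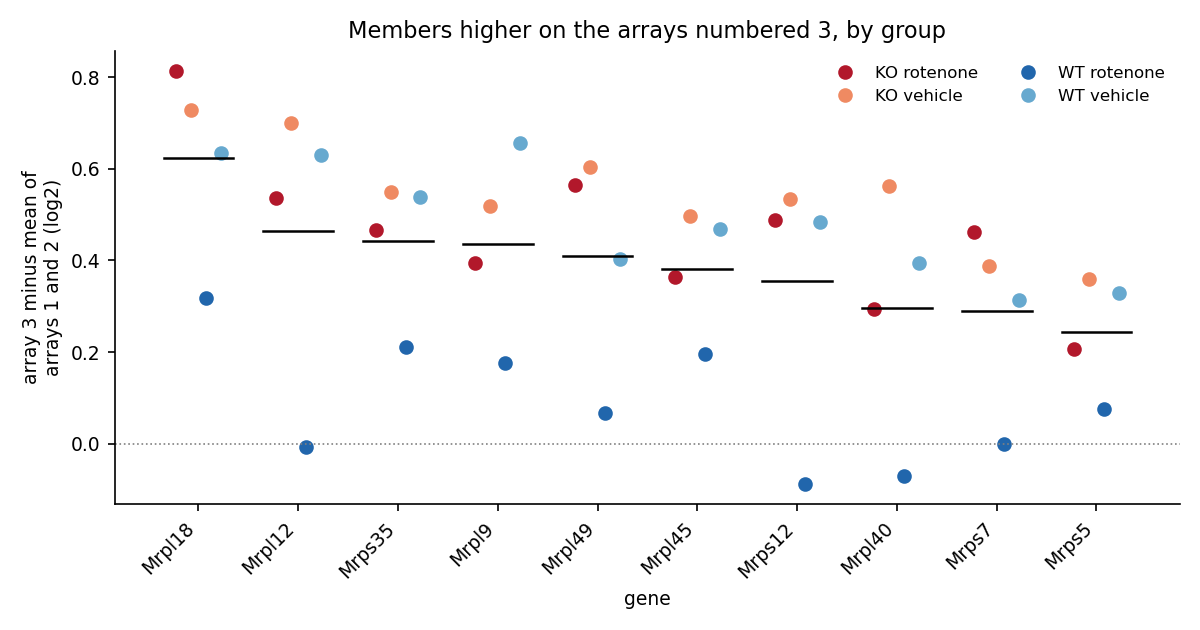
Array 3 minus the mean of arrays 1 and 2 of the same group (vertical axis, log2) for the 10 genes that rose (horizontal axis). Points are the 4 groups and black lines the fitted mean difference. In each gene the WT rotenone point is the lowest.

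The other genes around the mitochondrial ribosome were taken from lists. Of 4 ribosomal proteins with other symbols (Chchd1, Dap3, Gadd45gip1, Ptcd3), 0 passed in rotenone against vehicle, with a median of -0.10, and of -0.014 without WT rotenone array 3 and with the block. On the arrays numbered 3, Chchd1, Dap3 and Ptcd3 rose by 0.37, 0.20 and 0.31. Translation factors (9 genes, median -0.011) and genes of ribosome assembly and rRNA modification (20 genes, median 0.049) had no call with rotenone. Among them Tufm, the elongation factor that carries aminoacyl-tRNA, rose by 0.22 on the arrays numbered 3, as did Gfm2, a recycling factor (0.28), and Oxa1l, the insertase of the inner membrane (0.20). Of the assembly genes, Noa1 rose by 0.26, while Mettl17 fell by 0.36, Mrm1 fell by 0.22 and Mterf3 fell by 0.43. Genes of mitochondrial DNA and RNA synthesis and processing (18 genes, median 0.014 with rotenone) had 2 rises (Pnpt1 0.40 and Tbrg4 0.22) on those arrays, and Tefm fell by 0.32. Of 11 regulators of nuclear genes for mitochondria, none passed with rotenone (median 0.11), and on the arrays numbered 3 Hcfc1 rose by 0.27 while Myc fell by 0.88 and Sp1 fell by 0.42.

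With rotenone, the cytosolic ribosomal proteins (45 genes) had a median of -0.020 and the complex I subunits (32 genes) one of -0.11, with 30 of 32 lower and 0 called. Within pairs the complex I median was -0.091, 0.057 and -0.038 in KO cells and -0.078, 0.030 and -0.53 in WT cells. Without WT rotenone array 3 and with the block it was -0.028 for complex I, with 25 of 32 lower, and 0.015 for the cytosolic ribosomal proteins. In the integrated stress response, whose factor Atf4 is known to answer mitochondrial faults, all 12 estimates were higher with rotenone (median 0.46). Of the 12, 2 passed without a block (Ddit4 0.52, Stc2 0.72), and 9 with it, among them Trib3 (1.09, adjusted p 6.41e-07 with the block). Of 14 proliferation genes, 0 passed without the block and Plk1 fell by 0.48 with it.

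The 53 further probe sets of the 33 genes with more than 1 gave a weaker shift. Many of the 53 were dim, whereas all but 1 of the brightest probe sets of the genes were not. The part of the dim ones in the weaker shift was not tested. With rotenone the median of the 53 was -0.033, and 0.0054 without WT rotenone array 3 and with the block. Of the 53, 34 had the sign of the brightest probe set of their gene. The sign was shared by 33 of 53 for rotenone in WT cells and by 26 for rotenone in KO cells. It was shared by 31 for KO minus WT with vehicle, 30 with rotenone and 31 for the arrays numbered 3. No further probe set differed from the brightest one by over 0.5 in any comparison. That limit is larger than any member's mean rotenone difference, so it says little about agreement.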

How the data were processed

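RNA of 12 arrays in 4 groups of 3 was measured on Affymetrix arrays. The authors deposited log2 values made with RMA, per the submitters' processing notes, with no version or settings given in the sources used here. Since RMA brings arrays to a common distribution, a shift of most transcripts together would not be seen. Values lay between 3.19 and 14.59, array medians between 7.53 and 7.58, and the between-array correlation was 0.982 to 0.997. The precision is limited by how many arrays there are.

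Of 22690 probe sets, 64 array controls were left out. Genes were named from the platform annotation, and all 74 matched RefSeq (GRCm38.p6) by gene ID. Tests were two-sided and used lmFit and eBayes of limma 3.58.1 under R 4.3.3, on 4 group means without a block. Fits without a block were tried on simulated data whose noise was independent between arrays, unlike these data. The fit with the block was not tried on simulated data. The replicate numbers were taken as pairing the arrays, because all 18 correlations of deviations between same-numbered arrays were above 0.1 (0.289 to 0.829). This separates number 3 but cannot establish the pairing of numbers 1 and 2. Number 1 against number 2 gave -0.0535 to 0.476, with 11 of 12 above 0.1. These values overlapped the same-numbered pairs of 1 and 2 (0.289 to 0.554). For numbers 1 and 2 the block and the pair results therefore rest on an assumption. Members and lists were chosen with earlier results of these data known. Named were members past the threshold in either fit, the 5 highest and 5 lowest test statistics for rotenone and for KO against WT with vehicle, and those named for their place in the family. Others, such as Mrpl50, Mrpl51, Mrpl54, Mrps7, Mrps14 and Mrps15, were chosen after their values were seen, as were the settings that leave out the WT arrays numbered 3 with the block.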

Additional observations from a re-analysis of the deposited data

How the results depend on the processing

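The settings tried were the replicate number as a block, dim probe sets left out, arrays centred on their medians, an intensity trend with a robust prior, the mean of all probe sets of a gene, each array left out in turn, and all arrays of a number left out. The rotenone call of Mrpl18 needed the block: 1 gene called (adjusted p 0.043), and 1 with both WT arrays numbered 3 also left out (adjusted p 0.0389). The block changed no other call on a member. KO minus WT with rotenone had 1 call without all arrays numbered 3 (adjusted p 0.0217) and 2 without both WT ones (adjusted p 0.0283). For KO minus WT with vehicle, leaving out 1 array moved the median between -0.14 and 0.015. For the arrays numbered 3, leaving out 1 array moved the 10 calls between 4 and 25. Without WT vehicle array 3, 5 were called, without KO vehicle array 3, 4, without KO rotenone array 3, 6, and without WT rotenone array 3, 25. Mrpl12, Mrpl40, Mrpl49, Mrps5, Mrps7 and Mrps12 each lost their call in at least 1 such setting, and Mrpl18, Mrpl45, Mrpl9 and Mrps35 in none.

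Estimates that changed sign all had adjusted p-values far from the threshold. With rotenone, Mrps6 was at -0.080 without all arrays numbered 2. For KO minus WT with vehicle, the mean of all probe sets gave Mrpl15 -0.020 and Mrpl52 -0.012. Leaving out 1 array moved Mrpl15 between -0.10 and 0.095, Mrpl2 between -0.13 and 0.14, Mrpl52 between -0.11 and 0.11 and Mrps9 between -0.084 and 0.071. Without all arrays numbered 3, Mrpl15, Mrpl52 and Mrps9 were at -0.063, -0.0065 and -0.022, and without both WT ones Mrpl15 was at -0.059. The cause was not tested. With 3 arrays a group the median SE of a gene's rotenone difference was 0.098, close to the size of the median shift of -0.12. Signal over background is unknown, because no detection calls were used.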
